A study of Mus musculus with 18 samples.

Results

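The 5 mature microRNAs (miRNAs) of the hairpin clusters of miR-192, miR-194 and miR-215 that were counted in mouse kidney were followed across 3 groups: mmu-miR-192-5p, mmu-miR-192-3p, mmu-miR-194-5p, mmu-miR-194-2-3p and mmu-miR-215-5p. They were taken by name from a table of small RNA read counts, with a name that stands on several rows counted once, and are 5 of the 902 names in that table. Each of the 3 groups had 6 kidney libraries. Control mice were of the strain C57BL/6J and received 0.9% saline. Mice with diabetic nephropathy (DN) were of the strain C57BL/KsJ and also received 0.9% saline. Treated mice were C57BL/KsJ with diabetic nephropathy and received 10 mg/kg/day of germacrone, a sesquiterpene found in plants. No allele, age or sex is given in the labels, and nothing in them states that 1 library is 1 animal, so p-values measure only how far these samples spread, which could be technical. Both comparisons with control set one strain against another, so a strain difference and a disease difference cannot be told apart there, and they use the same control libraries.

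A miRNA hairpin is cut into a 5p and a 3p arm, and the arm that is loaded into Argonaute silences messenger RNAs that pair with its seed. In kidney, miR-192 and miR-194 are abundant in tubular epithelium, where hepatocyte nuclear factors drive their transcription, and p53 can induce all 3 families. miR-192 has been studied in diabetic kidney as a TGF-beta-responsive miRNA of mesangial and tubular cells that represses the E-box repressors Zeb1 and Zeb2.

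The mature sequences are shown because they decide which members can share targets and which reads can be told apart. They are given 5′ to 3′ from RefSeq (GRCm38.p6), with the seed (bases 2 to 8) in capitals.
mmu-miR-192-5p: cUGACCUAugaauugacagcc
mmu-miR-215-5p: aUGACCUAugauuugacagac
mmu-miR-192-3p: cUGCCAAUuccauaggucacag
mmu-miR-194-5p: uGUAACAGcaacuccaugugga
mmu-miR-194-2-3p: cCAGUGGGgcugcuguuaucug

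The 5p arms of miR-192 and miR-215 carry one seed, UGACCUA, which no other of the 1679 mature names in the RefSeq table holds. The 2 arms are identical at 18 of 21 bases, and they differ by the substitutions C1A, A12U and C20A (miR-192-5p first, counted from its 5′ end), all of them outside the seed. The seeds of miR-194-5p (GUAACAG) and miR-192-3p (UGCCAAU) belong to no other name in that table, and the seed of miR-194-2-3p (CAGUGGG) also occurs in mmu-miR-6926-5p and mmu-miR-7055-5p.

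The members come from 4 hairpins in 2 clusters. Mir194-2 (chr19:6264643-6264728) and Mir192 (chr19:6264844-6264932) lie 115 bases apart on the plus strand, outside any gene of GENCODE M21, after the protein-coding gene Atg2a, which ends 2308 bases before Mir194-2, and before the long non-coding RNA gene Gm14963, which lies 3863 bases after Mir192. Mir194-1 (chr1:185313319-185313385) and Mir215 (chr1:185313581-185313692) lie 195 bases apart on the plus strand, in an intron of Iars2, an isoleucyl-tRNA synthetase gene on the minus strand. Both also lie within 2010103J01Rik, an antisense gene on the plus strand, Mir194-1 in its intron and Mir215 overlapping its exon. The 3 hairpins that give miR-192 and miR-194 are shown with both mature arms in capitals, since one of these arms is encoded on both chromosomes.
Mir192: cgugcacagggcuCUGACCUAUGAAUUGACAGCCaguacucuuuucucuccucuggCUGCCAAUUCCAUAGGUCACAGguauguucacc
Mir194-2: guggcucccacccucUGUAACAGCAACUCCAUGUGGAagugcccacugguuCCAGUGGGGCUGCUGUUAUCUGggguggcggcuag
Mir194-1: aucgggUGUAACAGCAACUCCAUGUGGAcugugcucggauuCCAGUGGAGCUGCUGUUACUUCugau

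miR-194-5p is the same 22 bases in Mir194-1 and Mir194-2, so its reads do not show which cluster they came from. In the table it stands on 2 rows with equal values in every library, whole numbers in 9 of 18 libraries, and levels here are those of 1 row. Other libraries had fractional counts, such as 10379.5 in DN 2. Whether each read was divided between the 2 rows was not tested. If so, levels, rank and ratios from 1 row understate miR-194-5p by the same factor in every library. The 3p arms of the 2 miR-194 hairpins differ (G8A, U19C, C20U and G22C, with miR-194-2-3p first), so miR-194-2-3p marks the chromosome 19 hairpin. The 3p arms of the chromosome 1 cluster, miR-194-1-3p and miR-215-3p, do not stand in the table under those names, so they could not be followed here.

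Library totals ran from 3700672 to 6654035 counts among the controls, from 3645173 to 7239343 among DN libraries and from 3657879 to 5972069 among treated libraries. DN 2, DN 3 and control 2 stood apart from their groups, with a median correlation of log2 level with their own group of 0.896, 0.926 and 0.946, against 0.958 to 0.973 in the other 15 libraries. Levels are given in CPM, read counts relative to a library size scaled by the TMM method and expressed per 1000000 counts. The leukocyte markers (7 of 7 tested) summed to 25946 CPM in DN 2, against 1589 to 2360 in the other DN libraries, 3176 to 4225 in control and 1847 to 9117 in treated, where the highest value was that of treated 6. In treated, miR-146a-5p varied most, at 2186 ± 2676 CPM, while the other leukocyte markers had SDs of 18.3 to 123 CPM there. The tubule and kidney-enriched miRNAs (10 of 10 tested) summed to 91484 CPM in DN 2, 200806 to 288797 in the other DN libraries, 179589 to 239481 in control and 226767 to 338165 in treated. The liver marker miR-122-5p, relevant because liver also makes miR-192 and miR-194, lay between 5.58 and 118 CPM in all libraries. None of these lists had a defining marker at 0. Of the markers of red blood cells, endothelium, smooth muscle, fibroblasts and striated muscle, 0 passed in any comparison with all 18 libraries in the fit. In whole kidney, fewer cells of a type and less RNA per cell cannot be told apart.

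The 5p arms of miR-192 and miR-194 were among the more abundant miRNAs in these kidneys. miR-192-5p was at 18255 ± 6137 CPM in control, 23925 ± 12762 in DN and 26437 ± 4029 in treated (SD, n = 6 each), and by its mean over all libraries it ranked 9 of 902. miR-194-5p, at 5903 ± 1339, 5867 ± 2798 and 6579 ± 1075 CPM in the same order, ranked 36 by 1 of its 2 rows. Their partner arms were scarce: miR-192-3p was at 121 ± 16.7, 111 ± 44.1 and 117 ± 19.3 CPM, and miR-194-2-3p at 65.9 ± 17.3, 49.6 ± 24.5 and 43.6 ± 7.84 CPM. miR-215-5p, the seed partner of miR-192-5p on chromosome 1, was near the limit of detection, at 0.762 ± 0.492, 1.92 ± 2.73 and 1.40 ± 0.873 CPM. All mature arms are 21 or 22 bases long, so levels are not set by length, although the capture of each sequence in library preparation was not measured. With both rows of miR-194-5p counted, the members held 3.20% ± 0.800 of the named counts in control, 3.50% ± 1.65 in DN and 3.67% ± 0.542 in treated. Their share was lowest in DN 2, at 0.831%.

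miR-192-5p, the abundant arm of Mir192, varied most within DN. Control libraries 1 to 6 were at 24619, 10755, 13652, 17756, 16339 and 26409 CPM. DN libraries 1 to 6 were at 28823, 3880, 12324, 35840, 30363 and 32322 CPM, and treated libraries 1 to 6 at 27049, 24450, 30785, 28415, 19392 and 28531 CPM. DN 2 and DN 3 were low, the other 4 DN libraries lay above every control library, and 4 of 6 treated libraries did so too, so that all groups overlapped. Within single libraries the rank of miR-192-5p ran from 6 in DN 1 to 38 in DN 2.

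miR-192-3p, the scarce arm of the same hairpin, had a narrower range. It lay between 96.6 and 142 CPM in control (median 123), between 35.2 and 167 in DN (median 120) and between 99.8 and 149 in treated (median 107). DN 2 was the lowest library and DN 1 the highest, and the groups overlapped.

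miR-194-5p, encoded in both clusters, resembled miR-192-5p in its lowest libraries, although its highest DN library was DN 1 and not DN 4. Control libraries 1 to 6 were at 6906, 4007, 4981, 5828, 5921 and 7777 CPM, DN libraries at 8836, 1510, 3412, 6743, 7079 and 7625, and treated libraries at 6687, 6829, 6591, 8169, 4808 and 6390. As for miR-192-5p, control 2, DN 2 and DN 3 were the lowest 3 of the 18 libraries, and the groups overlapped.

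miR-194-2-3p, the arm specific to the chromosome 19 hairpin, differed from both abundant 5p arms in control 2 and DN 3. Control libraries 1 to 6 were at 60.4, 99.3, 55.2, 52.5, 69.3 and 59.0 CPM, DN libraries at 44.6, 9.60, 82.6, 53.8, 64.5 and 42.2, and treated libraries at 56.0, 36.6, 46.1, 44.4, 33.8 and 44.5. Control 2 and DN 3, low for both abundant 5p arms, were the highest of their groups for miR-194-2-3p, while DN 2 was low again. All 6 treated libraries lay at or below 56.0 CPM, within the DN range and overlapping the lower controls.

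miR-215-5p rested on 0 to 33 counts per library. Control libraries 1 to 6 had 4.5, 4.5, 4, 7.5, 0 and 3.5 counts, DN libraries 2.5, 0, 2.5, 8.5, 33 and 8, and treated libraries 11, 5.5, 4, 8.5, 0 and 5. The highest library, DN 5, was at 7.36 CPM. Control 5, DN 2 and treated 5 were at 0, and a count of 0 allows up to 3 counts, which is 0.732, 0.437 and 0.563 CPM in these libraries, by counting error only.

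**Figure D1:**
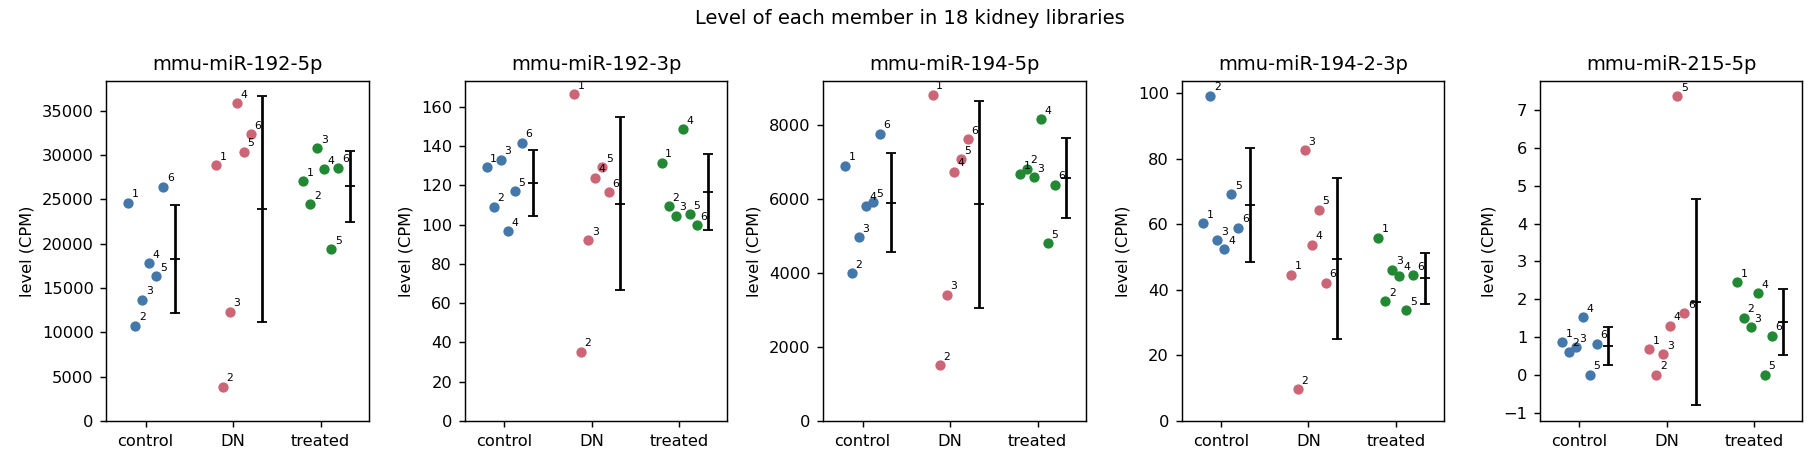
Level of each member in CPM (vertical axis) in the 6 control, 6 DN and 6 treated kidney libraries, with points numbered by library and the mean ± SD beside each group. DN 2 is the lowest or joint lowest library for all 5 members, control 2 is the highest control for miR-194-2-3p at 99.3 CPM, and all groups overlap.

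The comparison of DN with control asked whether the clusters differ in the diabetic kidney. No member passed the threshold of an adjusted p under 0.05, and neither did any of the 619 rows tested by the edgeR quasi-likelihood test (0% called, 0% with groups that did not overlap, and 5.17% higher and 2.42% lower at an unadjusted p under 0.05). DESeq2 called 4 rows, none of them a member. miR-192-5p had a log2 fold change (log2FC) of 0.39 (SE 0.363, 95% interval −0.37 to 1.15, edgeR adjusted p = 0.825), with 4 of 6 DN libraries above the control median. miR-194-5p had −0.0088 (SE 0.298, interval −0.63 to 0.62, edgeR adjusted p = 0.997). The scarce arms had −0.13 (SE 0.257, edgeR adjusted p = 0.935) for miR-192-3p and −0.41 (SE 0.329, edgeR adjusted p = 0.807) for miR-194-2-3p, and 0 of 4 tested members reached an unadjusted p under 0.05.

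These values leaned on single libraries. Without DN 2, the log2FC of miR-192-5p was 0.62 (edgeR adjusted p = 0.255), that of miR-194-5p 0.20 and that of miR-192-3p 0.068, while miR-194-2-3p stayed negative at −0.16. Without control 2, DN 2 and DN 3 together, miR-192-5p passed at 0.67 (edgeR adjusted p = 0.0335), in a fit where 51 of 636 rows were called. It also passed in a limma-voom fit that gave those libraries the lowest weights of all 18, at 0.75 (adjusted p = 0.0185), where 91 of 619 rows were called. For miR-192-5p, DN 2 and DN 3 were the lowest DN libraries and control 2 the lowest control. Both passes rest on setting aside or down-weighting these same libraries, so they are not separate support. Leukocyte markers moved with DN 2: 7 of 7 had a positive log2FC in DN with it and 0 of 7 without it (1 called). Fits that left out 1 library called 0 to 6 of all rows in DN against control. In the fit without control 2, DN 2 and DN 3, where miR-192-5p passed, 0 of 7 leukocyte markers had a positive log2FC (2 called, median −0.85), and 1 of 4 fibroblast and pericyte markers did (1 called). In that fit 9 of 10 tubule and kidney-enriched miRNAs had a positive log2FC (2 called, median 0.34). The part of these cell types in the values of the members was not tested.

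The comparison of treated with DN asked what germacrone changed. The tested members had log2FC of 0.14 (SE 0.363, interval −0.61 to 0.90) for miR-192-5p, 0.076 (SE 0.257) for miR-192-3p, 0.17 (SE 0.298, interval −0.46 to 0.79) for miR-194-5p and −0.19 (SE 0.330) for miR-194-2-3p. None passed (edgeR adjusted p = 0.926 to 0.979), as did 0% of all rows, and 0 rows by DESeq2 or limma-voom, with 0.808% higher and 2.91% lower at an unadjusted p under 0.05 and 0% with groups that did not overlap. Only 1 of 6 treated libraries lay above the DN median for miR-192-5p and for miR-194-5p, although the DN means were lower. Without DN 2 the log2FC was −0.092 for miR-192-5p, −0.14 for miR-192-3p and −0.050 for miR-194-5p, so the direction of these 3 rested on that library, and it was −0.45 for miR-194-2-3p.

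The comparison of treated with control asked how far the treated DN kidney was from the control kidney. miR-192-5p had a log2FC of 0.53 (SE 0.363, interval −0.22 to 1.29, edgeR adjusted p = 0.432), with 6 of 6 treated libraries above the control median. miR-194-2-3p had −0.60 (SE 0.330, interval −1.29 to 0.092, edgeR adjusted p = 0.332), with 0 of 6 treated libraries above the control median. miR-194-5p (0.16, SE 0.298, edgeR adjusted p = 0.771) and miR-192-3p (−0.056, SE 0.257, edgeR adjusted p = 0.911) lay closer to 0, and with library size as the only scaling miR-194-5p was at −0.040. Across all rows 0% passed, 10.7% were higher and 8.89% lower at an unadjusted p under 0.05, and 5.33% had groups that did not overlap. Of the 4 tested members, 0 met any of these criteria. DESeq2 called 18 rows, limma-voom 106 and the fit of only these 2 groups 56, without a member among them.

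**Figure D2:**
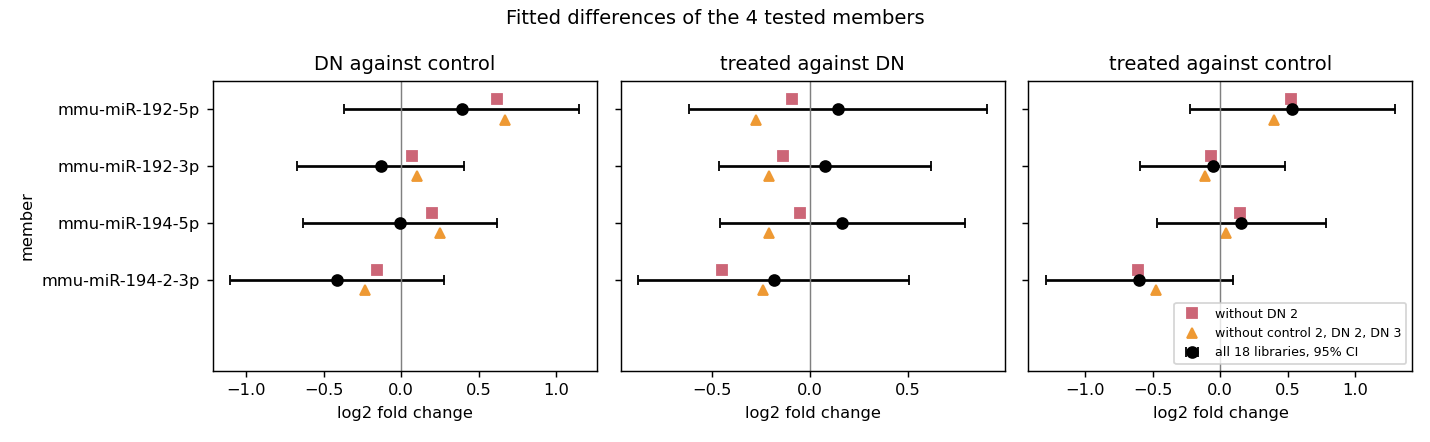
Fitted log2 fold change of the 4 tested members (horizontal axis) in the 3 comparisons. Black points with bars are edgeR estimates with 95% intervals from all 18 libraries, squares are fits without DN 2, and triangles are fits without control 2, DN 2 and DN 3. Every interval crosses 0, and in treated against DN the values of miR-192-5p, miR-192-3p and miR-194-5p change sign without DN 2.

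miR-215-5p was below the count filter of the test. In a fit of 1183 rows with no filter its log2FC was 1.32 in DN against control (SE 1.01, edgeR adjusted p = 0.630), −0.45 in treated against DN (SE 0.998, edgeR adjusted p = 0.971) and 0.88 in treated against control (SE 1.02, edgeR adjusted p = 0.723). The DN mean was drawn up by the 33 counts of DN 5. A difference in this miRNA was not detectable at this depth. On the log2 scale, the ratio of its counts to those of miR-192-5p differed by 0.32 in DN against control, −0.27 in treated against DN and 0.050 in treated against control (adjusted p = 0.808, 0.824 and 0.933 by exact permutation tests). The median of the count ratio itself was 4.46e-05 in control, 4.02e-05 in DN and 5.13e-05 in treated.

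Ratios between members within a library do not depend on how libraries are scaled. Their differences below are on the log2 scale, with exact 2-sided permutation tests over all splits of 6 against 6 libraries, whose smallest p is 0.00216, adjusted over 12 tests. In treated against control, the 3 ratios among members of the miR-192 and miR-194 hairpins were higher.

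Of the 2 abundant arms, miR-192-5p was higher relative to miR-194-5p in treated than in control kidneys, and the DN median lay close to the treated median of 4.04. The count of miR-192-5p was 3.57, 2.68, 2.74, 3.05, 2.76 and 3.396 times that of 1 row of miR-194-5p in control libraries 1 to 6. It was 2.57 to 5.32 times in DN (median 3.93), with DN 2 lowest and DN 4 highest, and 4.05, 3.58, 4.67, 3.48, 4.03 and 4.47 times in treated libraries 1 to 6. Only control 1 reached the range of the treated libraries. The ratio was 0.42 higher in treated than in control (exact permutation p = 0.00433, adjusted p = 0.0260, 6 of 6 treated libraries above the control median). The difference was 0.33 in DN against control (exact permutation p = 0.0779, adjusted p = 0.234) and 0.089 in treated against DN (adjusted p = 0.802 by the exact permutation test). Without DN 2, DN against control was at 0.44 (adjusted p = 0.0390 by the exact permutation test).

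The arms of Mir192 shifted towards the 5p arm in treated against control kidneys. miR-192-5p had 98.5 to 191 counts per count of miR-192-3p in control (median 162), 110 to 289 in DN (median 204) and 184 to 295 in treated (median 214). Control 1, control 4 and control 6 lay near the lowest treated libraries, and control 2 and control 3 well below them. The ratio was 0.65 higher in treated than in control (exact permutation p = 0.00866, adjusted p = 0.0346, 6 of 6). It differed by 0.40 in DN against control and 0.25 in treated against DN (adjusted p = 0.499 and 0.623 by exact permutation tests).

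The ratio of the miR-194 arms was also higher in treated than in control kidneys, with a DN median close to that of treated. On 1 of its rows, miR-194-5p had 40.4 to 132 counts per count of miR-194-2-3p in control (median 101). The values were 41.3 to 198 in DN (median 141) and 119 to 187 in treated (median 143). Control 2 and DN 3 were the lowest libraries, at 40.4 and 41.3, and control 6 was the only control above the lowest treated library. The ratio was 0.75 higher in treated than in control (exact permutation p = 0.00433, adjusted p = 0.0260, 6 of 6). In DN against control and treated against DN it differed by 0.43 and 0.32 (adjusted p = 0.623 and 0.734 by exact permutation tests). Since miR-194-5p is encoded by 2 hairpins and miR-194-2-3p by 1, this need not be a ratio of the arms of a single hairpin.

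**Figure D3:**
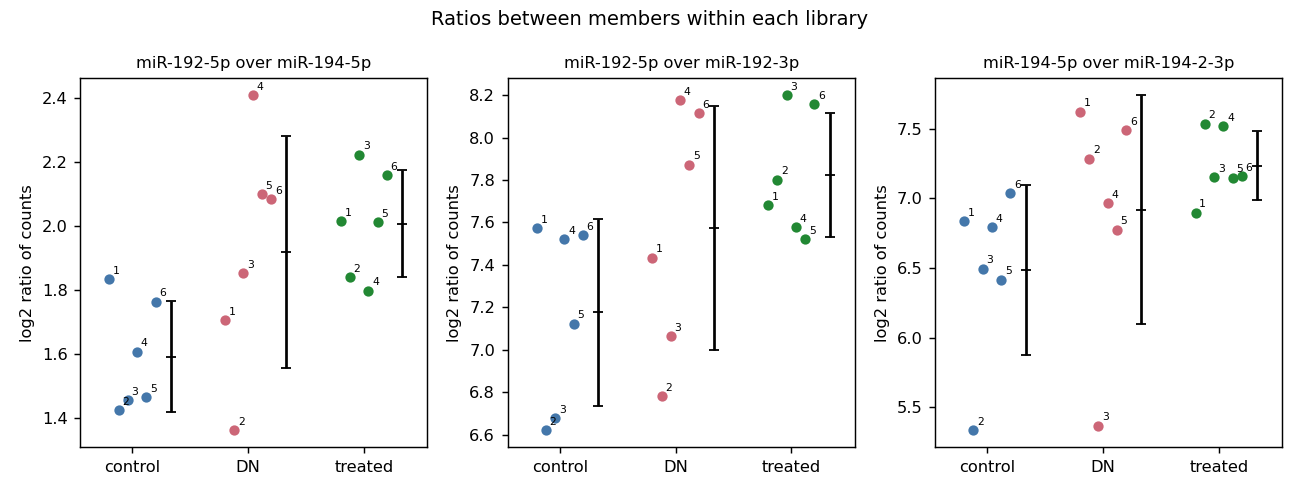
Ratios of read counts between members within each library, on a log2 scale (vertical axis), for the 3 groups of 6 libraries, with points numbered by library and the mean ± SD beside each group. For each ratio all 6 treated libraries lie above the control median, the treated and control groups overlap, and the DN libraries spread over both.

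All 3 of these calls were fragile. Each of them kept an adjusted p under 0.05 without control 1, control 4 or control 6 (0.0173 to 0.0346), and each was lost without control 2, control 3, control 5 or any 1 treated library (0.0519 to 0.121). The differences themselves ranged over 0.37 to 0.47, 0.54 to 0.73 and 0.52 to 0.86 with 1 library left out, in the order of the 3 ratios above. Without control 2, DN 2 and DN 3 they were 0.38, 0.54 and 0.52 (adjusted p = 0.0519, 0.0779 and 0.0519 by exact permutation tests).

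Shifts between arms were common in this comparison. Of 128 other mouse hairpins with both arms tested, the ratio of the major to the minor arm was higher in treated than in control in 17.2% and lower in 12.5% at an unadjusted exact p under 0.05. In 23 of the 128 the ratio rose by at least as much as that of miR-192, and in 18 by at least as much as that of miR-194. The median over these hairpins was 0.18, with 79 of 128 higher. The same shares were 3.12% higher and 0.781% lower in DN against control, and 3.91% higher and 3.12% lower in treated against DN. Read against that background, the 2 arm ratios of the members stand among many that moved between treated and control kidneys. No such background was computed for the ratio of miR-192-5p to miR-194-5p.

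Mir192 and Mir194-2 lie 115 bases apart on chromosome 19, and no primary transcript was measured. Their 5p arms, miR-192-5p and miR-194-5p, rose and fell together across libraries. Over the 18 libraries the Pearson correlation of their log2 levels was 0.943 (permutation p = 1e-05, the smallest that the permutations can give, adjusted p = 3e-05 over 3 correlations) and Spearman's rho was 0.738 (permutation p = 0.00084, adjusted p = 0.00252). Without DN 2 and control 2, the libraries farthest from the median, r was 0.817. Within groups it was 0.982 in control, 0.978 in DN and 0.760 in treated. These levels share each library's depth and scaling.

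Paired 5p and 3p arms were less alike, although miR-194-5p is also encoded by Mir194-1. miR-192-5p and miR-192-3p had an r of 0.791 (permutation p = 0.00333, adjusted p = 0.00499) and a rho of 0.385 (permutation p = 0.117, adjusted p = 0.175), and r was 0.379 without DN 2 and control 2, so the relation rested on those libraries. Within groups r was 0.462, 0.944 and 0.212 in control, DN and treated. miR-194-5p and miR-194-2-3p had an r of 0.497 (permutation p = 0.0600, adjusted p = 0.0600) and a rho of −0.10 (permutation p = 0.685), with r at −0.38 without DN 2 and DN 3. Within groups their r was −0.63, 0.685 and 0.520.

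**Figure D4:**
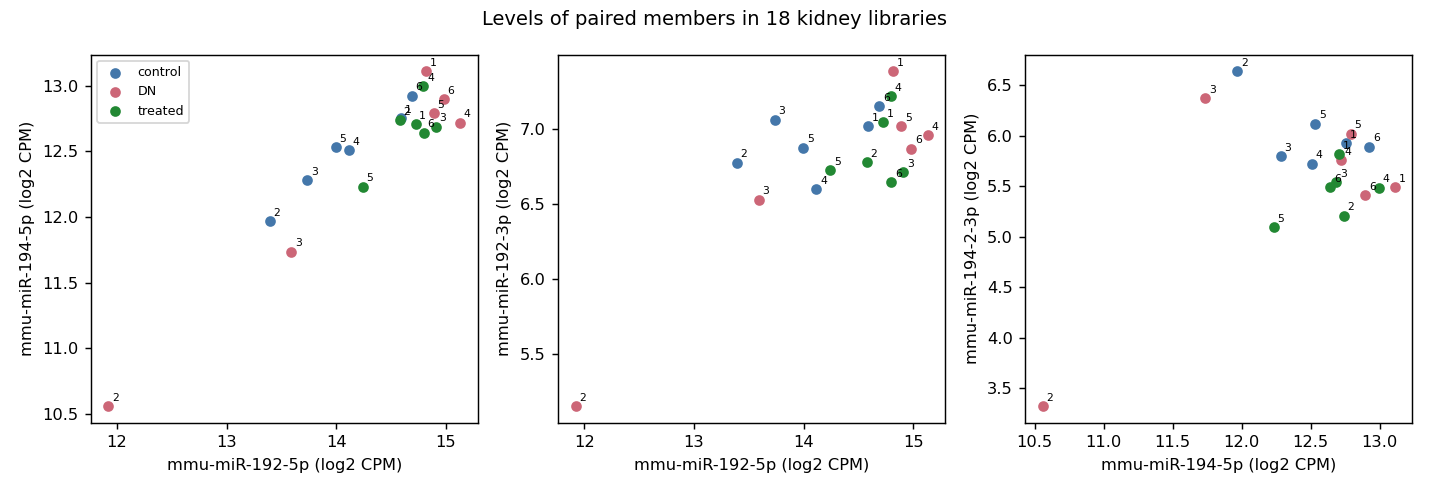
Log2 level (log2 CPM) of miR-192-5p against miR-194-5p, of miR-192-5p against miR-192-3p and of miR-194-5p against miR-194-2-3p in the 18 libraries, coloured by group and numbered by library. The first pair follows one line (r 0.943), while in the third pair control 2 and DN 3 lie above the other libraries and DN 2 lies far below them.

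Among 324 other mouse miRNAs of at least 10 CPM on average, those most like miR-192-5p across the 18 libraries were miR-455-5p (r 0.959), miR-30e-3p (0.958), miR-203b-3p (0.947), miR-30a-3p (0.913) and miR-3068-3p (0.906). Without DN 2 their r was 0.913, 0.903, 0.893, 0.776 and 0.929. miR-194-5p, at 0.943, was exceeded by 3 of the 324, miR-192-3p by 32 and miR-194-2-3p (0.421) by 105. None of the 5 passed in any comparison, and in treated against control their log2FC ran from 0.37 to 0.90 (edgeR adjusted p = 0.184 to 0.432). For miR-215-5p the 5 nearest, miR-1843b-5p (0.683), let-7f-1-3p (0.654), miR-378b (0.635), miR-203b-3p (0.634) and miR-1843a-5p (0.630), rest on its sparse counts, and these values are a description only.

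Rows named for other species may hold reads of the members, but they were chosen by name and their sequences were not compared. The main row of cgr-miR-194, a hamster name, carried 8.73% to 17.6% of the count of 1 mouse miR-194-5p row, at 644.8 CPM on average, with log2FC of 0.055, 0.047 and 0.10 in the 3 comparisons in the order above. bta-miR-215, a bovine name, had the same count as mouse miR-215-5p in 10 of 18 libraries and a higher one in 8. With such rows added, the log2 ratio of miR-215-5p to miR-192-5p was −0.77 in treated against control in place of 0.050, so its direction depends on which rows are counted.

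The wider circuit in which miR-192 has been placed in diabetic kidney was described with lists of known miRNAs. Of the TGF-beta and Zeb circuit (the miR-200 and miR-29 families, miR-21a, miR-216a, miR-217, miR-377 and miR-382), 10 of 13 were tested and 0 passed in any comparison with all 18 libraries. Positive log2FC were found for 6 of 10 in DN against control, 8 in treated against DN and 8 in treated against control, and for 6, 6 and 5 with library size as the only scaling. Their medians were 0.11, 0.21 and 0.22, against 0.075, −0.054 and −0.0035 over all rows. miR-21a-5p, a miRNA of kidney injury and fibrosis, was at 31725 ± 14520 CPM in control, 78013 ± 56802 in DN and 72484 ± 28086 in treated. Its log2FC was 1.30 in DN against control (edgeR adjusted p = 0.277), 1.19 in treated against control (edgeR adjusted p = 0.173) and −0.11 in treated against DN (edgeR adjusted p = 0.986). The list, miR-21a-5p included, summed to 222060 CPM in DN 2, against 71839 to 138393 in the other DN libraries. miR-141-3p, an epithelial miRNA of the miR-200 family that also targets Zeb genes, was at 353 ± 104 CPM in treated and 237 ± 108 in DN (log2FC 0.58, edgeR adjusted p = 0.800), and at 197 ± 60.4 in control (log2FC 0.84 in treated against control, edgeR adjusted p = 0.186). Without control 2, DN 2 and DN 3, 1 of the 10 was called in treated against control, where 50 of 636 rows were called.

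The p53-responsive miR-34 family, tested in full with 5 members, had 3 of 5 positive in each comparison and 0 passed. miR-34a-5p, a direct target of p53, had a log2FC of 0.34 in DN against control (edgeR adjusted p = 0.820). The tubule and kidney-enriched list (miR-30, miR-10, miR-196 and miR-204) had 9, 7 and 7 of 10 positive in the 3 comparisons with 0 passed over all 18 libraries, and 6, 6 and 7 with library size as the only scaling. Its medians were 0.16, 0.26 and 0.50. miR-204-5p, an epithelial miRNA, was at 457 ± 92.0 CPM in control and 929 ± 234 in DN (log2FC 1.02, edgeR adjusted p = 0.0806), and at 893 ± 267 in treated (log2FC 0.96 against control, edgeR adjusted p = 0.0945). miR-30e-5p and miR-30c-5p, abundant in podocytes and tubules, had log2FC of 0.52 and 0.45 in treated against DN (edgeR adjusted p = 0.800 for each). Without DN 2, 5 of 10 of this list were positive in treated against DN, and 1 passed in DN against control and 2 in treated against control. Over all rows, fits that left out 1 library called 0 to 6 in DN against control and 0 to 7 in treated against control. Without control 2, DN 2 and DN 3, 2 passed in DN against control and 4 in treated against control. In that fit 51 and 50 of all 636 rows were called in these comparisons.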

How the data were processed

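Small RNA libraries of 18 mouse kidney samples were compared. The authors used Trizol for extraction, a TruSeq Small RNA kit for the libraries and ACGT101-miR to filter reads, per the labels. Trimmomatic 0.32, BWA, SAMtools and edgeR are named per the submitters' processing notes, with the miRBase release and genome build not given in the sources used here. Raw columns deposited by the authors hold estimated counts (75.7% of values above 0 were exactly whole) and the deposited normalized columns hold a signal, equal to the raw columns multiplied by a library's own factor, 0.6644 to 1.427. Of 1534 rows, 350 without a name (0.0136% to 0.148% of a library) were left out.

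Counts were rounded and fitted with edgeR 4.0.16 in R 4.3.3 (quasi-likelihood, legacy method) on all 18 libraries with group as the only factor. filterByExpr (minimum count 10, total 15) kept 619 rows with 99.972% of named counts. TMM factors were used, and tests were 2-sided with Benjamini-Hochberg adjustment over all tested rows. Levels are CPM from unrounded counts, with a prior count of 2 on the log2 scale. Ratios were log2((a + 0.5)/(b + 0.5)) within a library. Correlations used 100000 permutations. Depth was 3645173 to 7239343 counts, and no pair within a group agreed within counting noise (smallest chi-square per degree of freedom 60.4). The edgeR and permutation steps were tested on simulated data.

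Members and lists were chosen with earlier results of these data known. Named miRNAs were the members, the 5 nearest to miR-192-5p and to miR-215-5p by correlation, and the circuit members past the threshold or, with none, the 3 of largest absolute log2FC per comparison at 10 CPM or more. Alternatives were no filter, RLE factors, library size only, 10 CPM in 6 libraries, a replicate block, a robust prior, only the 2 groups compared, summed names, DESeq2 1.42.0, limma-voom (limma 3.58.1) with sample weights, a ratio pseudocount of 2, each library left out, and control 2, DN 2 and DN 3 left out together. Added after seeing the data were limma on log2 of the authors' signal plus 1, rows named for other species, and the arm ratios of other hairpins.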

Additional observations from a re-analysis of the deposited data

Results flagged for a closer look

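For 2 values, 1 library lay far from the other 5 of its group, measured as its gap to the nearest library over the range of the group, against Dixon's limit at the 95% level. Over the 24 groups examined, chance flags about 1 in 20. miR-194-2-3p was at 99.3 CPM in control 2 (gap over range 0.642), and miR-215-5p was at 7.36 CPM in DN 5 (0.778), on 33 counts.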

How the results depend on the processing

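The count of rows called in treated against DN was 0 under all 30 alternatives. In DN against control and treated against control it was 0 in the main analysis, and 51 and 50 without control 2, DN 2 and DN 3 together, 4 and 18 with DESeq2, 91 and 106 with limma-voom. The 10 CPM filter gave 2 in DN against control, and fitting only the 2 groups gave 56 in treated against control. Leaving out 1 library gave 0 to 6 calls in DN against control and 0 to 7 in treated against control. Library size only moved the median log2FC of all rows from −0.054 to −0.19 in treated against DN and from −0.0035 to −0.20 in treated against control.

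miR-192-5p (0.34 to 0.67) and miR-194-2-3p (−0.81 to −0.41) in treated against control kept their direction under all 30 alternatives, as did both in DN against control (0.15 to 0.75 and −0.62 to −0.16). miR-192-5p passed in DN against control without the 3 libraries (0.67) and in limma-voom (0.75). In DN against control, miR-194-5p turned positive with no filter (0.026), only the 2 groups (0.047), limma-voom (0.22), without the 3 libraries (0.25) and in 13 fits that left out 1 library (range −0.056 to 0.20), and miR-192-3p did with limma-voom (0.026), without the 3 libraries (0.10) and with 1 library left out (−0.19 to 0.068). In treated against DN, limma-voom gave −0.19, −0.081 and −0.068 for miR-192-5p, miR-192-3p and miR-194-5p, and leaving out the 3 libraries −0.28, −0.21 and −0.21. With 1 library left out these ranged from −0.092 to 0.28, −0.14 to 0.16 and −0.050 to 0.25, and miR-194-2-3p from −0.45 to 0.012. Library size only gave −0.026 for miR-192-3p in treated against DN and −0.040 for miR-194-5p in treated against control, and miR-192-3p in treated against control ranged from −0.12 to 0.014 with 1 library left out.

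The 3 ratios higher in treated than in control kept their direction under all 22 alternatives, at 0.37 to 0.47, 0.54 to 0.73 and 0.52 to 0.86 with 1 library left out, and at 0.38, 0.54 and 0.52 without the 3 libraries, where the calls ended. Without the 3 libraries the ratios of miR-192-5p to miR-194-5p and to miR-192-3p in treated against DN were −0.067 and −0.075, and the first ranged from −0.022 to 0.19 with 1 library left out (0.23 to 0.44 in DN against control). The ratio of miR-215-5p to miR-192-5p ranged with 1 library left out from −0.16 to 0.60, −0.55 to 0.34 and −0.43 to 0.66 in the 3 comparisons, was −0.016 in treated against control with a pseudocount of 2, and was −0.62 in DN against control and −0.77 in treated against control with rows of other species added. The cause of these reversals was not tested.

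Samples share only a replicate number: deviations of same-numbered libraries correlated at −0.057 to 0.263 in DN against control, −0.33 to 0.026 in treated against control and −0.25 to 0.018 in treated against DN, and 0 of 6 correlated best with its own number. With the replicate block no row was called in any comparison, and the 3 ratios in treated against control were 0.42, 0.65 and 0.75 with an adjusted p of 0.125 by an exact sign-flip test, whose smallest unadjusted p is 0.03125. With that floor and adjustment over 12 tests, 3 ratios alone cannot pass, so this test cannot decide whether the calls hold. miR-215-5p is limited by depth.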
